A study of Mus musculus with 18 samples.

Results

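Prostaglandins are local lipid signals, and 10 genes for their synthesis, breakdown, uptake and reception were followed in cultured fibroblasts of mouse embryos (MEFs), which make connective tissue matrix. The members were Ptgs1, Ptgs2, Ptges, Ptgis, Ptgds, Slco2a1, Hpgd, Ptger2, Ptger4 and Ptgfr, found by their gene symbols among 55487 genes of the count table. The set was selected on earlier results of these data, in which Hpgd differed between replicate numbers, so the differences between numbers are given below as a description with no test. For 24 h the cells were kept in full growth medium with uracil at 0 µM (control), 10 µM or 30 µM, and total RNA was sequenced from 6 libraries per dose. The titles number the libraries of each dose 1 to 6, and the study calls them biological replicates. Strain, sex, embryo age and passage are not given in the sources used here, and no allele or agent other than uracil is named. Nothing in the labels says that libraries with the same number came from the same culture or embryo, and p-values measure only the spread between these libraries. Uracil is the pyrimidine base that uridine phosphorylase-1 releases from uridine, and the study asked how it alters the matrix that fibroblasts deposit.

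Prostaglandin synthesis starts when phospholipase A2 frees arachidonic acid from membranes. The cyclooxygenases, constitutive Ptgs1 and inducible Ptgs2, turn it into prostaglandin H2, from which terminal synthases make prostaglandin E2 (Ptges), prostacyclin (Ptgis) or prostaglandin D2 (Ptgds). Slco2a1 carries prostaglandins into the cell, where Hpgd, the NAD-dependent 15-hydroxyprostaglandin dehydrogenase, inactivates them. Ptger2 and Ptger4 are receptors for prostaglandin E2 that raise cyclic AMP, and Ptgfr is the receptor for prostaglandin F2α. Fibroblasts are known as a source of prostaglandin E2 in inflamed and healing tissue.

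Promoter sequences are shown for 4 members whose levels varied together over the libraries (Hpgd, Slco2a1, Ptgfr and Ptges) and for the cyclooxygenase pair. They are RefSeq sequences on GRCm38.p6, written 5′ to 3′ on the strand of the gene, from 250 bases before to 50 bases after the annotated start, and 9 of the 10 members matched an entry (Ptgis did not). The windows are chr8:56294302-56294601 on the plus strand for Hpgd, chr9:103008237-103008536 on the plus strand for Slco2a1, chr3:151837479-151837778 on the minus strand for Ptgfr, chr2:30903248-30903547 on the minus strand for Ptges, chr1:150099781-150100080 on the plus strand for Ptgs2 and chr2:36230176-36230475 on the plus strand for Ptgs1. Capitals mark matches, on either strand, to 6 motifs, which were TATAAA for the TATA box, CCAAT for the CCAAT box, GGGCGG for the GC box, TGACGTCA for the cAMP response element, TGANTCA for the AP-1 site and CACGTG for the E box. No letters of a match to one motif were part of a match to another in the windows printed.
Hpgd: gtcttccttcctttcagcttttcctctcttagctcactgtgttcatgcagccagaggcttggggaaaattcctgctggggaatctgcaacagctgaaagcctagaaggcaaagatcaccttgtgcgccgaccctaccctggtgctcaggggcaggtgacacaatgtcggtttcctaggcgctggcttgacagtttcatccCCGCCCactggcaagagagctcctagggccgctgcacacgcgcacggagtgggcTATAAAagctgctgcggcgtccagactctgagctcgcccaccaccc
Slco2a1: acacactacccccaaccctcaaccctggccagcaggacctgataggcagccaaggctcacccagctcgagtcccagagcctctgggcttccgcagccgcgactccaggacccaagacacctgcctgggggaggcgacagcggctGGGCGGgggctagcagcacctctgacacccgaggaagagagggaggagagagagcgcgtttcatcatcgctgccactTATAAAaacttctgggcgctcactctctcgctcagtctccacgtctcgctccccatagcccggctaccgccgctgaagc
Ptgfr: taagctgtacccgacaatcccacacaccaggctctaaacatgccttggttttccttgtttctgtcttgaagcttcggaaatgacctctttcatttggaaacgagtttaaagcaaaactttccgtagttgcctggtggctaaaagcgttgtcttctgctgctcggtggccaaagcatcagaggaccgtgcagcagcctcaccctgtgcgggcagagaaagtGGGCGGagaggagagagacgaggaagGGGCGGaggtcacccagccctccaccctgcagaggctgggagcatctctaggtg
Ptges: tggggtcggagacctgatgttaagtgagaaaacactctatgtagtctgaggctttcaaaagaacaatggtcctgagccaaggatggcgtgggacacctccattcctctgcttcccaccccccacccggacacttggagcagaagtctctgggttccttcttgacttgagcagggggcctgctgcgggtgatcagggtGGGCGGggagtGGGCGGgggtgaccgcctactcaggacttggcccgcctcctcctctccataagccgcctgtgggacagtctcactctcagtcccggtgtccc
Ptgs2: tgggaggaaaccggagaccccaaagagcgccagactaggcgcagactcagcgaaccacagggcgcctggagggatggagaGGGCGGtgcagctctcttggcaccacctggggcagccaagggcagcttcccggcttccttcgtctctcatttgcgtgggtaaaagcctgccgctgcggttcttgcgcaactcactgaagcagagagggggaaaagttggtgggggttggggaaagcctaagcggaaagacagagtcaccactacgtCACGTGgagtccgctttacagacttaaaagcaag
Ptgs1: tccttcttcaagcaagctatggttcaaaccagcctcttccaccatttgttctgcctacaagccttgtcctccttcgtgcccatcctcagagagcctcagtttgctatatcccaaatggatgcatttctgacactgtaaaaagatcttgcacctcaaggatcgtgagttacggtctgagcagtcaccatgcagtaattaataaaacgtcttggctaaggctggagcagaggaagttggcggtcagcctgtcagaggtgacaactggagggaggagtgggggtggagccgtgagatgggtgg
TATAAA was found in Hpgd and Slco2a1, and 13.6% of all 32851 promoters hold it. It began 29 bases before the annotated start in Slco2a1 and at base 5 after it in Hpgd. GGGCGG was found in Hpgd, Slco2a1, Ptgfr, Ptges, Ptgs2 and Ptger4 (35.7% of all promoters), with 2 matches each in Ptgfr and Ptges and 4 in Ptger4. CACGTG was found in Ptgs2 (7.15%), CCAAT in Ptger2 and Ptger4 (37.4%), TGANTCA in Ptgds (7.81%) and TGACGTCA in none of the 9 (1.79%). The Ptgs1 window held none of the 6 motifs, and its GC content was 50.7% with 6 CpG, against 59.3% and 16 CpG in Ptgs2. Over all promoters the median was 52.7% and 7 CpG, and the Slco2a1 window had 64.0% and 18 CpG. A match is a string of letters, not a bound site.

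In 3 libraries more read pairs failed to align than in the rest, with 54.2% in control replicate 1 (3.96 M gene counts), 37.9% in 30 µM replicate 6 (7.39 M) and 5.24% in 10 µM replicate 6. The other 15 libraries had 11.6 to 20.8 M gene counts and 1.72% to 3.59% unaligned. The study removed a vehicle and a 30 µM sample for human RNA, which the labels do not identify, so all 18 libraries were used and values over the 15 libraries are set beside them. Of 12 fibroblast markers 11 had a mean over 1 CPM (counts scaled by TMM to a common library size) and Fap was under it, while Col1a2 averaged 9900 CPM. Of 7 leukocyte markers Csf1r alone had a mean over 1 CPM (1.04), with Cd68 at 0.938, Lyz2 at 0.806 and Ptprc at 0.0678 CPM. Of 6 endothelial markers Kdr (6.40 CPM) and Tek (2.37 CPM) were over it, and Pecam1, Cdh5, Cldn5 and Emcn were under it.

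Ptgs2 and Ptgis were the most abundant members per length, and of the 8 members tested the receptor Ptgfr was the least. In RPKM, which is CPM per kilobase of exon (mean ± SD, n = 18), Ptgs2 had 42.8 ± 18.3, Ptgis 31.7 ± 7.37 and Ptgs1 15.8 ± 2.46. Hpgd followed with 7.08 ± 4.48 RPKM, Ptges with 2.79 ± 0.688 and Slco2a1 with 2.09 ± 1.17. Ptger4 had 1.89 ± 0.418 RPKM and Ptgfr 0.425 ± 0.214. Over the 15 libraries the order of Ptger4 (1.94 ± 0.415 RPKM) and Slco2a1 (1.85 ± 0.652) was reversed. Ptgs2 lay above 94.1% of the tested genes with a length, Hpgd above 64.7% and Ptgfr above 10.1%.

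The order was firm in some steps and not in others. Ptgis exceeded Ptgs1 and Ptger4 exceeded Ptgfr in 18 of 18 libraries without overlap of their ranges. Ptgs1 exceeded Hpgd in 18 of 18 libraries, Hpgd exceeded Ptges in 15 of 18 and Ptges exceeded Slco2a1 in 16 of 18, with overlapping ranges. Ptgs2 lay above Ptgis in 10 of 18 libraries, and Slco2a1 above Ptger4 in 6 of 18, so these neighbours had no single order. Ptgs2 was above Ptgis in every library of numbers 2 and 3 (78.2 against 24.7 RPKM in control replicate 2). It was below Ptgis in every library of numbers 4 and 5 (33.2 against 46.0 RPKM in control replicate 4).

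**Figure D1:**
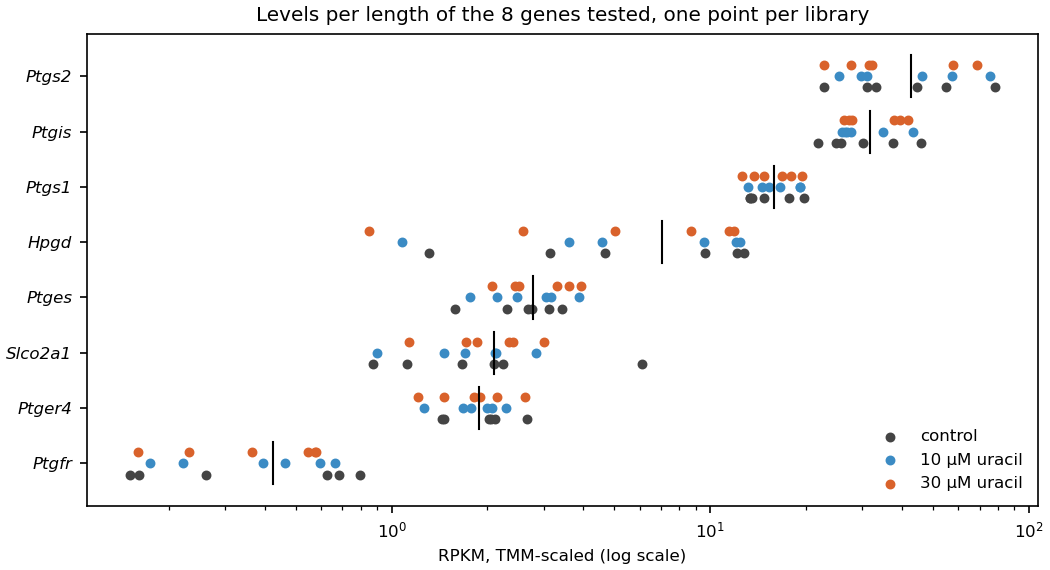
Levels per length of the 8 members tested, in RPKM on a log scale, with a point per library coloured by dose and a bar at the mean of 18 libraries. Ptgs2 and Ptgis lie highest at 42.8 and 31.7, Ptgfr lies lowest at 0.425, and Hpgd spans 0.852 to 12.7.

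A pair of members was near 0. The prostaglandin E2 receptor Ptger2 had 4 counts in all, at most 1 in any library and 0 in 14 of 18, and the prostaglandin D2 synthase Ptgds had 2 counts in all and 0 in 16 of 18. A count of 0 allows up to 3 counts, which is 0.144 to 0.757 CPM depending on the library, counting error only. These genes did not pass the filter on low counts, so 8 of 10 members were tested for dose.

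On GRCm39 all 10 are protein-coding genes, and 4 lie on chromosome 2: Ptgds (25352795 to 25362601, minus strand), Ptges (30779483 to 30820196, minus), Ptgs1 (36120438 to 36142287, plus) and Ptgis (167033725 to 167083018, minus). Ptgs2 lies on chromosome 1 (149975194 to 149983978, plus strand), Ptgfr on chromosome 3 (151502139 to 151543267, minus) and Hpgd on chromosome 8 (56747543 to 56774082, plus). Slco2a1 lies on chromosome 9 (102865911 to 102973201, plus strand), Ptger2 on chromosome 14 (45225652 to 45241277, plus) and Ptger4 on chromosome 15 (5236142 to 5273673, minus). The strand setting of the counting is not given in the sources used here, so reads of a member and of a gene on the other strand cannot be told apart where exons overlap. Of the members, Hpgd alone has no such overlap. Ptgs2 shares 476 exon bases with the non-coding Ptgs2os. Ptger4 shares 229 with Ttc33 and 1015 with the pseudogene Gm15937. Ptger2 shares 331 with Gm49364 and 509 with Gm17173, Ptges 317 with Gm74745 and Ptgfr 329 with Gm43618. Ptgs1, Ptgis, Ptgds and Slco2a1 share at most 156 with any single gene.

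As a ratio between replicate numbers, Hpgd, the gene of prostaglandin inactivation, had the widest spread of the 8 members tested. In the order control, 10 µM and 30 µM, number 1 held 39.3, 37.3 and 35.4 CPM, number 2 held 37.5, 38.4 and 36.8 CPM and number 3 held 29.7, 29.6 and 26.8 CPM. Number 4 held 14.4, 14.2 and 15.6 CPM, number 5 held 9.67, 11.1 and 7.99 CPM and number 6 held 4.04, 3.34 and 2.63 CPM. The 3 libraries of a number lay close together whatever their dose, and numbers 1 and 2 overlapped while each later step in the order 2, 1, 3, 4, 5, 6 was without overlap. Number 2 averaged 37.6 ± 0.828 CPM and number 6 averaged 3.34 ± 0.704 CPM (SD, n = 3), a ratio of 11.3. Over the 15 libraries the ratio was 9.30, with 1 library left in number 6. Replicate number held 98.8% of the variance of log2 CPM of Hpgd and dose 0.410%.

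Slco2a1, the prostaglandin transporter, was highest in number 1. Its level there was 83.5, 38.9 and 41.1 CPM, while number 2 held 28.8, 29.0 and 32.8 CPM and number 3 held 30.5, 28.8 and 25.4 CPM. Number 4 held 22.8, 23.2 and 23.4 CPM, number 5 held 15.2, 12.3 and 15.5 CPM and number 6 held 11.9, 20.0 and 32.0 CPM. The 3 libraries with the most unaligned pairs (control replicate 1, 10 µM replicate 6 and 30 µM replicate 6) each lay above every remaining library of their number. The highest to lowest ratio of means was 3.79 over all libraries (number 1 at 54.5 ± 25.2 CPM, number 5 at 14.4 ± 1.78 CPM). With the 15 libraries the lowest was number 6 in place of number 5, and the ratio of number 1 to it was 3.35. Number 6 then rests on 1 library, control replicate 6 at 11.9 CPM.

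**Figure D2:**
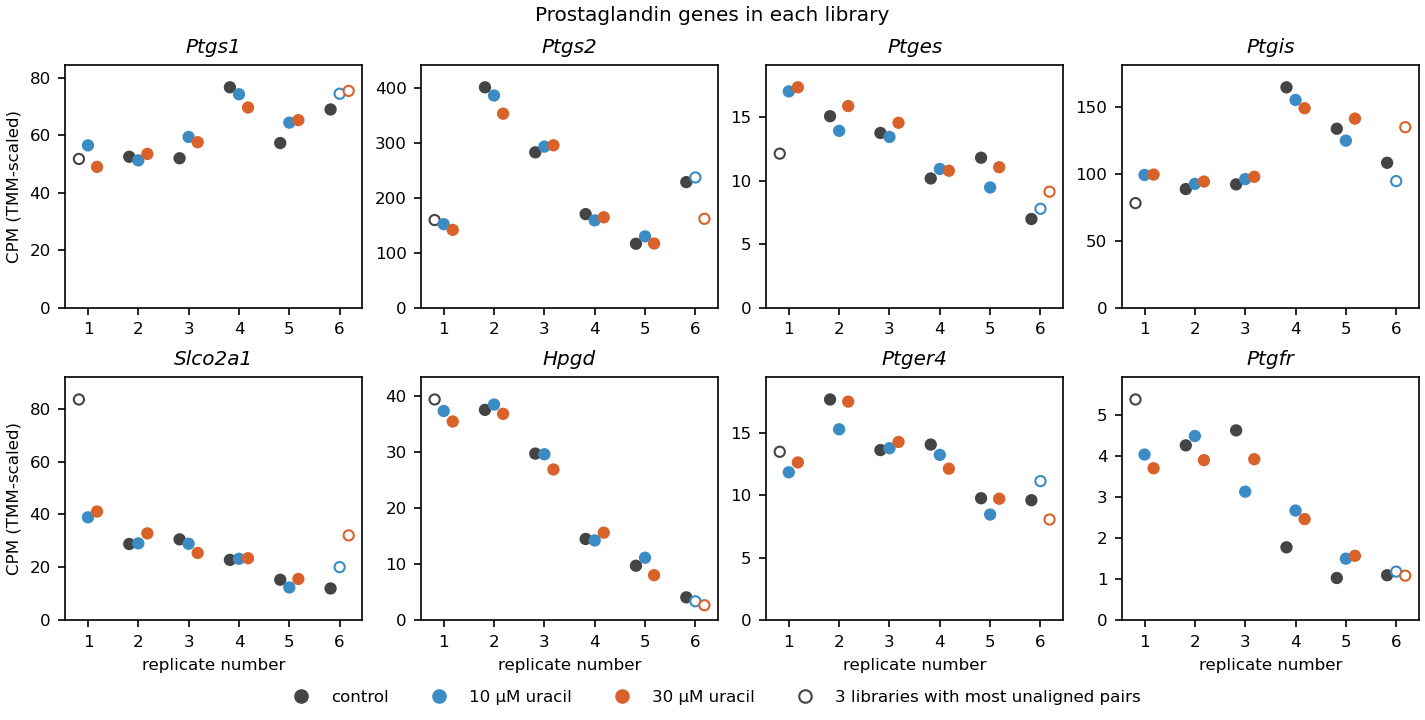
CPM of the 8 members tested in each of 18 libraries, by replicate number and coloured by dose, with open circles for the 3 libraries with the most unaligned pairs. Hpgd runs from 37.6 CPM on average in number 2 to 3.34 CPM in number 6, while Ptgis and Ptgs1 are highest in number 4.

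Both receptors with counts enough for a test had lower means in numbers 5 and 6 than in numbers 1, 2, 3 and 4. For Ptgfr, number 1 held 5.39, 4.04 and 3.71 CPM, and number 6 held 1.09, 1.18 and 1.08 CPM. Its means were 4.38 ± 0.889 and 1.12 ± 0.0541 CPM (SD, n = 3), a ratio of 3.91, and numbers 1, 2 and 3 overlapped. Ptgfr rests on 7 to 96 counts per library. Ptger4 was highest in number 2 at 17.7, 15.3 and 17.5 CPM and lowest in number 5 at 9.75, 8.44 and 9.71 CPM, a ratio of means of 1.81 without overlap.

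The synthesis genes did not share a single order. Ptgs2 was highest in number 2 at 400.6, 385.7 and 352.7 CPM and lowest in number 5 at 116.4, 129.8 and 116.9 CPM, a ratio of means of 3.14. In number 1, where Hpgd was high, Ptgs2 had 159.4, 151.9 and 141.6 CPM. For Ptges, number 1 held 12.1, 17.01 and 17.3 CPM and number 6 held 6.98, 7.78 and 9.13 CPM, a ratio of means of 1.94 over all libraries. Over the 15 libraries the ratio was 2.46, with 1 library left in number 6. Ptgis and Ptgs1 ran the other way. Ptgis had 164.5, 155.1 and 148.9 CPM in number 4 against 88.6, 92.5 and 94.2 CPM in number 2, a ratio of means of 1.70. Ptgs1 had 76.6, 74.2 and 69.6 CPM in number 4 against 51.7, 56.4 and 49.0 CPM in number 1, a ratio of 1.40. Neither pair of ranges overlapped.

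**Figure D3:**
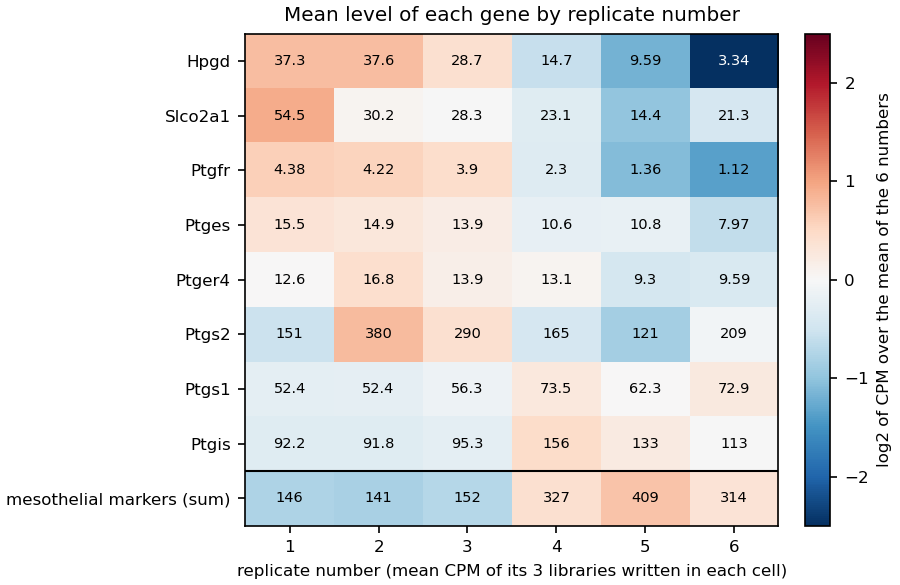
Mean CPM of the 3 libraries of each replicate number (columns) for the 8 members tested and for the sum of 7 mesothelial markers (rows), coloured by the log2 ratio to the mean of the 6 numbers. The Hpgd row is red in numbers 1 to 3 and blue in 4 to 6, and the rows of Ptgis, Ptgs1 and the mesothelial markers have their highest values in numbers 4, 4 and 5.

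Over the 8 members tested, the median difference between the highest and the lowest number was 1.29 on the log2 scale, beside 0.39 over all 13865 genes tested. Number held a median of 89.3% of the variance of log2 CPM in the members and 40.8% over all genes, and dose held 1.40% and 7.91%. As background over all genes, edgeR's quasi-likelihood F test called 1745 genes by number, 12.6% of those tested, and no such test is given for the members, which were picked with the result for Hpgd known.

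Other measures moved with the replicate number. Of 7 mesothelial markers, genes of the cell layer that lines body cavities, 6 had a mean over 1 CPM, Muc16 was under it and Upk1b was highest. Their summed level averaged 146.3, 141.5, 152.0, 326.6, 408.8 and 313.6 CPM in numbers 1 to 6, while by dose it ranged over 112.9 to 410.4 CPM in control, 140.3 to 395.5 CPM at 10 µM and 147.7 to 420.6 CPM at 30 µM. Over the 15 libraries the sum had a Pearson r of −0.89 with Hpgd and 0.87 with Ptgis. The sum of 8 epithelial markers, of which 4 (Epcam, Cldn4, Krt18 and Krt5) were under 1 CPM, had r of −0.70 and 0.92, and ranged over 62.2 to 114.5 CPM in control, 70.6 to 106.0 CPM at 10 µM and 67.2 to 134.3 CPM at 30 µM. Krt19 was the highest of them, with 57.0 CPM in number 2 and 77.6 CPM in number 5. Krt8, Krt14, Cdh1 and Krt5 were also higher in number 5 than in number 2. Epcam, Cldn4 and Krt18 ran the other way, with 0.700, 0.285 and 1.73 CPM in number 2 and 0.0725, 0 and 0.169 CPM in number 5. The sum of 6 smooth muscle markers, all over 1 CPM, averaged 5151, 5216, 5389, 5146, 4431 and 4451 CPM in numbers 1 to 6 (r of 0.72 with Hpgd and −0.46 with Ptgis), and ranged over 4414 to 5222 CPM in control, 4377 to 5472 CPM at 10 µM and 4000.2 to 5473 CPM at 30 µM. The other sums had r with Hpgd and Ptgis of −0.17 and 0.69 (endothelial, 7.34 to 12.03 CPM over all libraries), 0.56 and −0.41 (leukocyte, 1.39 to 6.91 CPM) and 0.31 and −0.28 (fibroblast). In the fibroblast sum Col1a2, Col1a1 and Col3a1 had the highest means (9900, 9839 and 4019 CPM), and its markers did not share an order. From number 1 to number 6, Lum went from 10.7 to 0.494 CPM and Pdgfrb from 219.8 to 142.4 CPM. Col1a1 went from 10559 to 17584 CPM, and Dcn was highest in number 5 (209.3 CPM). Pairs under the alignment quality limit made up 4.79% to 7.17% of the library in numbers 1 to 3 and 7.76% to 13.1% in numbers 4 to 6. The part of these measures in the levels of the members was not tested. In such bulk libraries, fewer cells of a type and less RNA per cell cannot be told apart.

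Hpgd, Slco2a1, Ptges and Ptgfr, the genes behind the first 4 promoters printed above, varied together over the 15 libraries. On log2 CPM, Pearson r with Hpgd was 0.93 for Ptgfr, 0.92 for Slco2a1 and 0.92 for Ptges, and over all 18 libraries it was 0.93, 0.60 and 0.88. It was 0.77 for Ptger4 and 0.55 for Ptgs2, and it was negative for Ptgs1 (−0.70) and Ptgis (−0.64). Ptgs1 and Ptgis had r of 0.85 with each other, and Ptgs2 and Ptger4 had 0.78. These points share replicate numbers, library depth and preparation, so the 15 libraries are not 15 independent cultures.

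By the same measure among 13044 other genes with a mean of at least 1 CPM, the genes most like Hpgd were Kctd12 (r = 0.985, rho = 0.93), Arsi, Pcdh7, Rspo2 (an enhancer of Wnt signalling) and Il1rn (the interleukin-1 receptor antagonist), each of the last 4 with r of 0.98, and 259 genes had r above 0.9. Those most like Ptgs2 were Klf6 (r = 0.990, rho = 0.96), Errfi1, Ccn1, Ereg and Hbegf, the last pair being ligands of the epidermal growth factor receptor, and 29 genes had r above 0.9. Those most like Ptgis were Popdc1 (r = 0.97, rho = 0.96), Pde3b, Nod1, Isyna1 and Zfpm1, and 36 genes had r above 0.9. Over all 18 libraries r fell to 0.97 for Klf6 and 0.89 for Popdc1, and was 0.98 for Kctd12. With 15 points and these many candidates, such lists are a description.

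Ratios between members per length within a library set the pathway's steps against each other. Ptgs2 to Ptgs1 averaged 5.50 ± 0.433 in number 2 and 1.48 ± 0.102 in number 5 (SD, n = 3), and inducible cyclooxygenase exceeded the constitutive form in every library (lowest 1.36). Ptgis to Hpgd averaged 2.11 ± 0.0897 in number 2 and 30.6 ± 11.8 in number 6 (control 23.1, 10 µM 24.4, 30 µM 44.2). Ptgis to Ptges, the prostacyclin and the prostaglandin E2 synthase, averaged 7.39 ± 0.475 in number 1 and 18.1 ± 1.56 in number 4. Ptges to Hpgd averaged 0.279 ± 0.0244 in number 2 and 1.76 ± 0.620 in number 6 (1.21, 1.64 and 2.43), so the order of these 2 genes turned between numbers. Of number 6 only the control library is among the 15 with few unaligned pairs. These are ratios of transcripts, and no prostaglandin was measured.

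Uracil gave no call among the members at either dose. Hpgd had 4.04, 22.1 and 39.3 CPM (lowest, median and highest of 6) in control, 3.34, 21.9 and 38.4 CPM at 10 µM and 2.63, 21.2 and 36.8 CPM at 30 µM. Ptgs2 had 116.4, 199.3 and 400.6 CPM in control, 129.8, 197.8 and 385.7 CPM at 10 µM and 116.9, 163.1 and 352.7 CPM at 30 µM. The ranges of the doses overlapped for all 8 members tested. By edgeR's quasi-likelihood test 0 of 8 passed an adjusted p of 0.05 at 10 µM (all adjusted p 1.00) and 0 of 8 at 30 µM (0.957 to 1.00), 0 of 8 had an unadjusted p under 0.05 at either dose, and DESeq2 called 0 of 8. Over all genes tested, 0% were called at 10 µM and 0% at 30 µM, and 0.692% and 4.29% had an unadjusted p under 0.05.

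At 10 µM the log2 fold change of Hpgd was 0.027 ± 0.63 (SE), with a 95% interval of −1.30 to 1.36, and at 30 µM it was −0.049 ± 0.63 (−1.38 to 1.29), in a fit that leaves the spread between numbers in the error. With the replicate number as a block, the Hpgd changes were −0.0075 ± 0.078 and −0.13 ± 0.080. Without the block, the change of Ptgs2 was −0.0051 ± 0.35 (−0.74 to 0.73) at 10 µM and −0.14 ± 0.35 (−0.87 to 0.59) at 30 µM. Ptgs1 had the narrowest intervals, with 0.079 ± 0.13 (−0.18 to 0.34) and 0.039 ± 0.13 (−0.23 to 0.30). The estimates farthest from 0 were −0.27 ± 0.39 for Slco2a1 at 10 µM (−1.10 to 0.56) and 0.18 ± 0.20 for Ptges at 30 µM (−0.25 to 0.61). The other members lay between −0.087 and 0.10. At each dose 3 members were higher and 5 lower than control, with medians of −0.0082 and −0.037 against 0.0059 and 0.012 over all genes, and both doses were set against the same control libraries.

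Over the 15 libraries the Slco2a1 estimates became 0.26 and 0.32, those of Hpgd 0.42 and 0.32 and those of Ptgfr 0.24 and 0.21, again with 0 of 8 called. Leaving out the other 3 leaves 5 libraries a dose and takes number 1 from control and number 6 from both uracil groups. Within a number, Hpgd with uracil was 0.826 to 1.15 times its control at 10 µM and 0.651 to 1.08 times at 30 µM, and Ptgs2 was 0.933 to 1.12 and 0.708 to 1.05 times. The lowest Hpgd ratio at each dose and the lowest Ptgs2 ratio at 30 µM came from number 6. In the other numbers the lowest were 0.948 and 0.826 for Hpgd, and 0.881 for Ptgs2 at 30 µM. Hpgd rests on 17 to 747 counts per library, with 17 in 30 µM replicate 6.

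**Figure D4:**
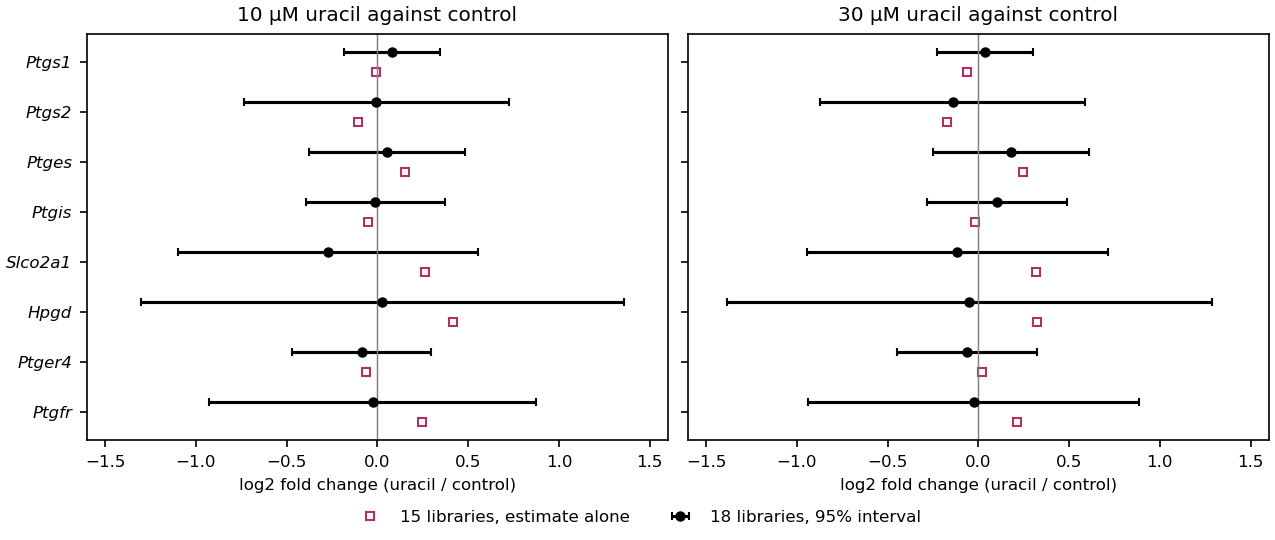
Log2 fold change of each of the 8 members tested at 10 µM (left) and 30 µM (right) against control, with black points for the estimate over 18 libraries, bars for its 95% interval and open squares for the estimate over 15 libraries. The fits shown have no replicate block. All 16 intervals cover 0, and that of Hpgd at 10 µM runs from −1.30 to 1.36.

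Of 32 further genes of the pathway, 31 were matched and 14 had counts enough for a test, of which 0 were called at either dose by edgeR. Those tested were 2 of 12 phospholipases A2, 7 of 10 synthases and reductases, 3 of 4 genes of breakdown and export and 2 of 6 receptors. Per length the most abundant was Ptges3 (103.5 ± 10.6 RPKM, SD, n = 18), a prostaglandin E synthase that is also a co-chaperone of Hsp90, then Akr1b8 (19.3 ± 3.26), Pla2g4a (18.1 ± 2.11), the cytosolic phospholipase that frees arachidonic acid, Ptgr1 (11.3 ± 1.46), a prostaglandin reductase, Akr1b3 (9.05 ± 0.920, Akr1b1 in GENCODE) and Ptges2 (3.96 ± 0.399). Ptges3 at 30 µM was the only one of the 14 with an unadjusted p under 0.05 (log2 change −0.20 ± 0.075, edgeR adjusted p 0.931), and 0 had one at 10 µM. The median log2 change was 0.037 at 10 µM and 0.059 at 30 µM.

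By replicate number the median log2 difference between the highest and lowest number was 0.53 in these genes, beside 1.29 in the members, and 6 of 14 were called, against 12.6% of all genes. This list was also chosen with earlier results of these data known, and the members include Hpgd, whose result by number was known. The comparison is therefore a description. Akr1b8, an aldo-keto reductase, averaged 43.2 CPM across number 2, 28.4 CPM across number 6 and had r of 0.91 with Hpgd, while Pla2g4a averaged 149.7 and 119.1 CPM in the same numbers (r = 0.71). Akr1b3 (r = −0.90) averaged 82.0 CPM in number 5 and 66.5 CPM in number 1. Hpgds and Tbxas1, the prostaglandin D and thromboxane synthases of blood cells, and the receptors Ptger3, Ptgdr, Ptgdr2 and Ptgir did not pass the filter on low counts, with at most 14 counts in a library.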

How the data were processed

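RNA was measured in 18 libraries (6 per dose, grouped by the dose and number in the titles). The authors deposited raw counts of read pairs per Ensembl gene, with no normalisation, from stranded total RNA depleted of ribosomal RNA. The submitters' processing notes name FastQC, HISAT2, SAMtools 1.2 and HTSeq. They name GRCh38, a human build, while the gene identifiers in the table are those of mouse, so the build behind the counts is uncertain. The roles of the tools, the annotation and the strand setting are not given in the sources used here. The 5 closing entries of uncounted pairs were left out of library sizes. All 18 count columns matched a sample, and 0 matched none.

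Gene names, positions and exon lengths came from GENCODE M39 on GRCm39, a build that need not be that of the count table. The analysis used edgeR 4.0.16 in R 4.3.3, with filterByExpr on dose, TMM scaling, robust quasi-likelihood fits on all 18 libraries with dose alone, and Benjamini-Hochberg adjustment over 13865 genes (threshold 0.05, two-sided). Intervals use the standard error and the degrees of freedom of each gene's test. CPM and RPKM are TMM-scaled, and log2 CPM has a prior count of 2. The number of the replicate was tested only as background, in an additive model with dose.

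The members, gene lists and markers were chosen with earlier results of these data known. All members are named, with the 6 other pathway genes of highest RPKM, any called for dose, and the 5 genes of highest r with Hpgd, Ptgs2 and Ptgis over 15 libraries. Genes named at low level, and single markers, illustrate counts. The alternatives were DESeq2 1.42.0, library totals, no filter, the replicate block, and removal of single libraries or of the 3 with the most unaligned pairs. Scripts were tested on simulated data. Total counts, from 3.96 M to 20.8 M per library, set the counting error, while the standard errors also hold the spread between libraries.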

Additional observations from a re-analysis of the deposited data

Results flagged for a closer look

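In the 6 control libraries, the level of Slco2a1 in replicate 1 stood apart from the rest, at 83.5 CPM against 11.9 to 30.5 CPM in the other 5. The gap to the nearest library was 0.740 of the range, above Dixon's 95% limit for 6 values. This was 1 of 24 groups of a member and a dose examined, and chance flags about 1 in 20 groups, or 1.2 here. Control replicate 1 is also the library with 54.2% unaligned pairs, whose part in the value was not tested.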

How the results depend on the processing

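The count of genes called for dose was 0 at both doses under every alternative run, and 0 of 8 members were called. The sign of the small log2 changes moved with the processing. At 10 µM, Hpgd was −0.0082 with DESeq2, and Ptgs2 was 0.0012 with library totals and 0.0078 without the filter. With the replicate block it was −0.0075 for Hpgd, 0.0072 for Ptgs2 and 0.011 for Ptgis at 10 µM, and 0.017 for Slco2a1 at 30 µM. Without the 3 libraries with the most unaligned pairs, it was −0.0079 for Ptgs1, 0.24 for Ptgfr and 0.26 for Slco2a1 at 10 µM, and 0.32 for Hpgd, −0.063 for Ptgs1, −0.019 for Ptgis, 0.020 for Ptger4, 0.21 for Ptgfr and 0.32 for Slco2a1 at 30 µM. With that removal and the replicate block, it was 0.014 for Ptgs2, −0.080 for Ptges and 0.019 for Ptgfr at 10 µM. Leaving out single libraries gave, at 10 µM, Hpgd −0.20 to 0.27, Ptgs2 −0.23 to 0.24, Ptges −0.073 to 0.16, Ptgis −0.13 to 0.14, Ptger4 −0.16 to 0.029, Ptgfr −0.21 to 0.20 and Slco2a1 −0.45 to 0.21, and at 30 µM, Hpgd −0.27 to 0.19, Ptgs1 −0.026 to 0.12, Ptgs2 −0.36 to 0.10, Ptger4 −0.18 to 0.053, Ptgfr −0.20 to 0.20 and Slco2a1 −0.29 to 0.36. The causes were not tested. Same-numbered libraries deviated together, with r over 0.1, in 5 of 6 pairs at each dose. The r ran from −0.10 to 0.57 at 10 µM and from −0.034 to 0.60 at 30 µM. At each dose 3 of 6 correlated best with their own number, and numbers 1, 3 and 6 did not. Numbers 1 and 6 hold the 3 libraries with the most unaligned pairs, and number 3 holds none of them. With such mixed outcomes this check cannot settle the pairing. With no pairing stated in the labels, the main fit had no block. With the block the Hpgd changes were −0.0075 ± 0.078 at 10 µM and −0.13 ± 0.080 at 30 µM (SE), far narrower than without it. On the 15 libraries with the block the changes were 0.032 and −0.071 for Hpgd and −0.076 and −0.0062 for Slco2a1. The smallest unadjusted p of a member in the block fit of all libraries was 0.0815. The count of genes called by number, 1745, was 2989 with DESeq2 and 2890 without the 3 libraries, and 1272 (without control replicate 5) to 3498 (without control replicate 1) when single libraries were left out, with 3271 without control replicate 6. Without the 3 libraries, the log2 ratio of means between the numbers that were highest and lowest over all 18 became 3.22 for Hpgd (2 over 6), 1.30 for Ptges (1 over 6) and 1.48 for Slco2a1 (1 over 5). Number 6 then held 1 library. Ptger2 and Ptgds, with at most 1 count per library, did not pass the filter on low counts and were not tested in the main fit.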
